A study of Homo sapiens with 6 samples.

Results

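The interleukin-6 family was followed through 9 genes of human breast cancer cells: the ligands IL6, LIF and IL11, the receptor genes IL6R, IL6ST, OSMR and LIFR, the transcription factor STAT3 and its feedback inhibitor SOCS3. They were picked by name, as 9 of the 58336 genes in the deposited count table, and read in all 6 libraries. The cells were SUM159 (Sum159 in the labels), an established triple-negative breast cancer line, separated in the labels into ITGB4 high and ITGB4 low cells (ITGB4 is the integrin beta-4 subunit). The libraries comprised 1 from ITGB4-high cells in dishes and 2 controls from ITGB4-low clones 1 and 3 in dishes. Another 2 were from ITGB4-low clones 1 and 3 recovered from mouse lungs that also received LM2 cells, a lung-metastatic derivative of MDA-MB-231 ("induced by LM2"), and 1 was from clone 1 taken from mouse lungs after bleomycin, a lung-injuring drug, was given by the trachea. Cells reached the lungs through the tail vein, and after lung dissociation and a night in culture the tdTomato-positive cells were sorted. Each ITGB4-low library is 1 clone, the passage through lung and sorting goes with both triggers, and cells from lungs without a trigger were not analysed here. The treatment text names clone 1 alone, so the clone of the other LM2 library rests on its title. The labels state no mouse strain, age or number per library.

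Cytokines of this family bind a private receptor chain and then the shared chain gp130, the product of IL6ST. IL-6 uses the IL-6 receptor (IL6R), IL-11 uses its own alpha chain, LIF pairs gp130 with LIFR, and oncostatin M pairs gp130 with OSMR. Janus kinases on these chains phosphorylate STAT3, which enters the nucleus and switches on, among others, SOCS3, a protein that binds gp130 and shuts the kinases off. In breast cancer cells the pathway is known for autocrine IL-6 and LIF loops and for responses to inflamed tissue.

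RNA was captured by poly(A) and sequenced to 13607953 to 22222121 counts per library, and a floor of 3 counts stood for 0.135 to 0.22 CPM (counts per 1e6 counts of a library). All 4 markers fixed for the line of origin (VIM, CD44, KRT18, ITGB1) were present in every library, with a summed level of 3756 to 4966 CPM. Whether these markers tell SUM159 from LM2 cells was not tested. ITGB4 checked the labels: it was at 25.9 CPM in control clone 1 and at 384 CPM in ITGB4-high cells, a fitted 15.19-fold difference (adjusted p = 0.0148, edgeR). ITGB4 was at 24.6 CPM in control clone 3. In lung-recovered libraries, which keep the label of the low clones, it was at 471 and 442 CPM in LM2 lung clones 1 and 3. It was at 306 CPM in bleomycin lung clone 1. All lung libraries were a fitted 16.07-fold of control and 1.06-fold of ITGB4-high cells (edgeR). For them the name ITGB4-low gives the label and not the ITGB4 level. The 2 LM2 libraries stood apart from each other, at a chi-square of 80.1 per degree of freedom over genes, beside 8.67 for the 2 controls. Results that rest on the LM2 libraries are given with and without each.

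Before the levels, the start regions of the ligand with the widest range and of the ligand that was nearly silent are shown, because the same cells held both. Sequences are from RefSeq (GRCh38.p14), the bases before each annotated start. For IL6 the 53 bases nearest the RefSeq start are left out because they lie in an exon of GENCODE release 29. Capitals mark matches to the motifs searched on both strands: NF-kB (GGG, any 2 bases, TT, any base, CC), C/EBP (TTGCNNAA) and CRE (TGACGT, here on the opposite strand) in IL6, and AP-1 (TGANTCA) in IL11.
IL6, chr7:22726950-22727146, plus strand: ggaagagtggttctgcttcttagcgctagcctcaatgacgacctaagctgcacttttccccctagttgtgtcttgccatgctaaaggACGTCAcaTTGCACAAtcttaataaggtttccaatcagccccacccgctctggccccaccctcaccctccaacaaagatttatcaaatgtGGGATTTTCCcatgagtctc
IL11, chr19:55370464-55370713, minus strand: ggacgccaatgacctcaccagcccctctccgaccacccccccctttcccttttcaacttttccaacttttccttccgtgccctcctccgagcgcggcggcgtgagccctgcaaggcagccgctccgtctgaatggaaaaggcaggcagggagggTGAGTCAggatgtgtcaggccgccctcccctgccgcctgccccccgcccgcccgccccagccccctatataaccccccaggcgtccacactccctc
The NF-kB match of IL6 lies 73 to 64 bases before the start, its C/EBP match 155 to 148 and its CRE match 163 to 158, with no overlap among them. The AP-1 match of IL11 lies 96 to 90 bases before its start. Over 35116 RefSeq windows of the same 250 bases, 5.07% held the NF-kB letters, 9.05% C/EBP, 7.1% CRE, 6.57% AP-1 and 6.57% the STAT letters TTCNNNGAA. Windows were found for 8 of the 9 genes, without LIF. OSMR also held a C/EBP match, at 73 to 66 bases before its start. LIFR held STAT matches before 2 of its annotated starts, at 165 to 157 and 182 to 174 bases, and a C/EBP match at 31 to 24. The IL6, OSMR and LIFR matches lie inside the GENCODE release 29 span of each gene, which begins before these RefSeq starts. Windows other than the 2 printed were not trimmed for exons. These are matches of letters only.

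IL6 and LIF, the ligands, had the widest ranges among the 8 genes with enough counts to test. IL6 was 3.06-fold to 34.1-fold higher in each lung-recovered library than in the control of its own clone. LIF was 19.8-fold higher in LM2 lung clone 1 and level with its control in LM2 lung clone 3, at 1.01-fold. Among the receptors, IL6R had its highest level, and IL6ST, OSMR and LIFR their lowest, in ITGB4-high cells. STAT3 lay within a 1.68-fold range over all 6 libraries. None of these differences passed edgeR's adjusted threshold of 0.05 over the 15673 genes tested.

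**Figure D1:**
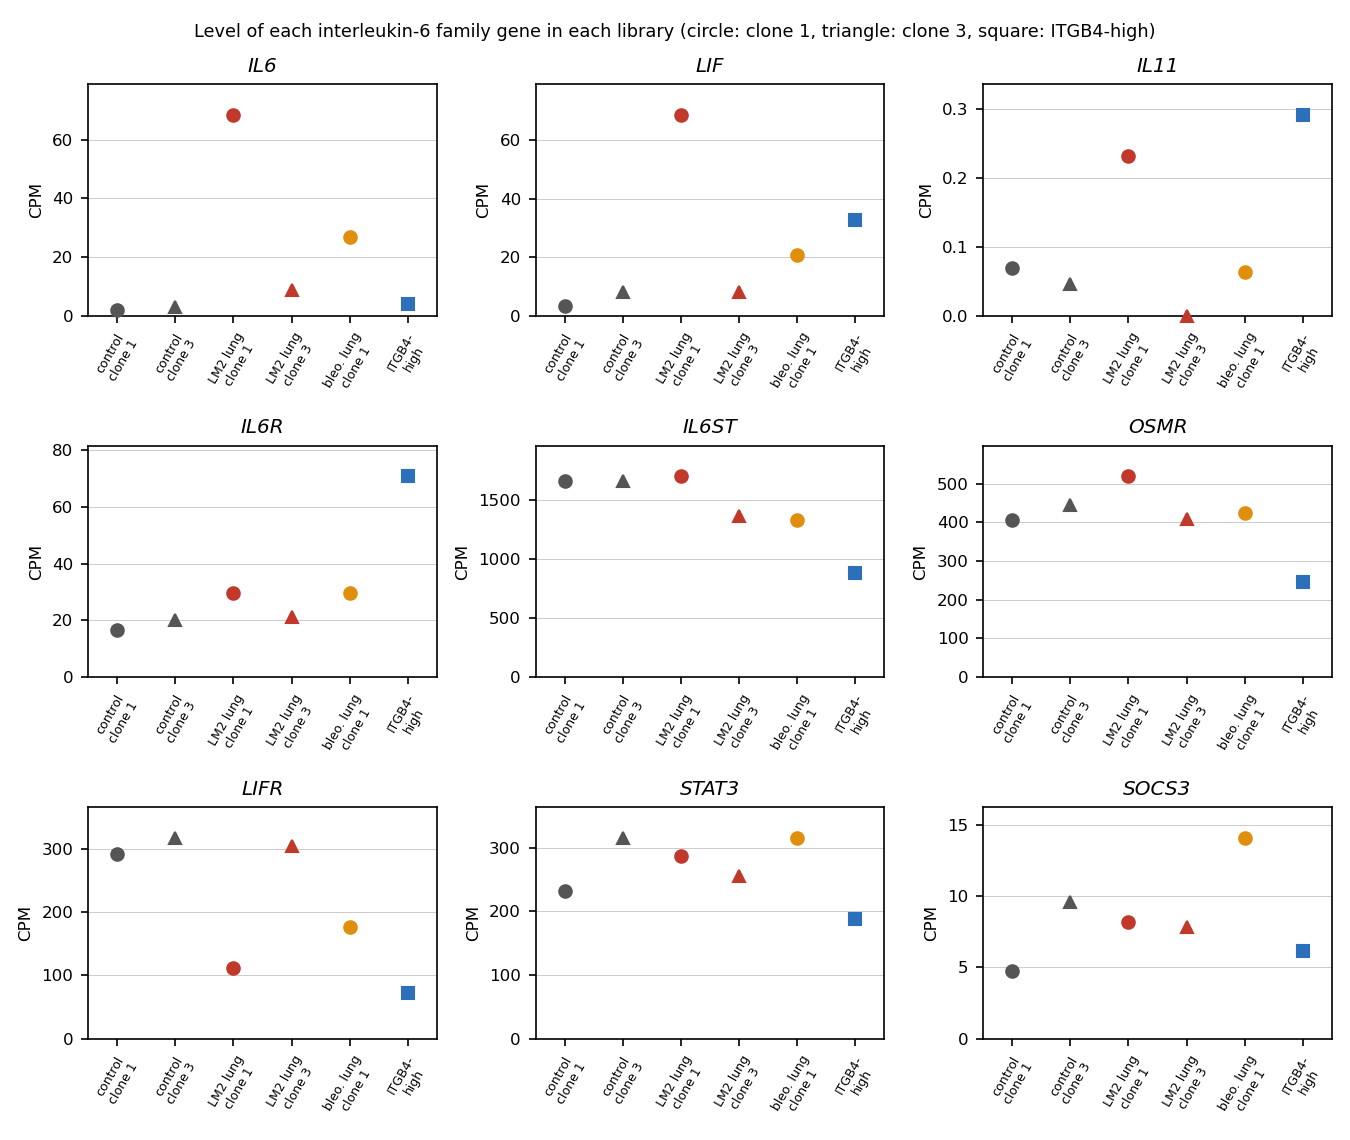
Level in CPM (y axis, linear, separate scale per gene) of the 9 genes in the 6 libraries (x axis); circles are clone 1, triangles clone 3, squares ITGB4-high cells, and each point is 1 library. IL6 is lowest in the 2 controls (2.01 and 2.80 CPM) and highest in LM2 lung clone 1 (68.5 CPM), while IL6R is highest in ITGB4-high cells (70.9 CPM).

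To set genes beside each other, levels were divided by the kilobases of exon in GENCODE 29. On that scale, averaged over the 6 libraries, IL6ST was first at 154 CPM per kilobase, then OSMR at 56.9, STAT3 at 30.2 and LIFR at 17.9. IL6 followed at 9.08, LIF at 5.96, IL6R at 4.86, SOCS3 at 3.08 and IL11 at 0.0439. The shared chain gp130 was therefore the most abundant transcript of the set per length. The order below LIFR was not fixed: in control clone 1 IL6 was at 0.971 CPM per kilobase, below IL6R at 2.60, whereas in LM2 lung clone 1 IL6 was at 33.1, above STAT3 at 32.5.

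IL6 (ENSG00000136244, GRCh38 chromosome 7, 22725884 to 22732002, plus strand) encodes the founding cytokine of the family. It was at 2.01 CPM in control clone 1 and 2.80 CPM in control clone 3 (2.41 ± 0.562, SD, n = 2). It reached 68.5 CPM in LM2 lung clone 1, 8.57 CPM in LM2 lung clone 3 and 26.7 CPM in bleomycin lung clone 1, with 4.09 CPM in ITGB4-high cells. All 3 lung libraries lay above both controls and above ITGB4-high cells, with no overlap. The spread among them was wide, and the higher LM2 library was 8.0-fold above the lower. In pooled RNA, more cells expressing a gene and more RNA per cell cannot be told apart. Against the control of its own clone, IL6 was 34.1-fold higher in LM2 lung clone 1, 3.06-fold in LM2 lung clone 3 and 13.3-fold in bleomycin lung clone 1. The fitted difference of all lung libraries from control was 3.82 on the log2 scale (SE 0.94, 95% interval 1.52 to 6.13), with an unadjusted p of 0.00662 and an adjusted p of 0.127.

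LIF (ENSG00000128342, chromosome 22, 30240447 to 30246851, minus strand) encodes leukaemia inhibitory factor. It was at 3.46 CPM in control clone 1 and 8.04 in control clone 3, a 2.32-fold gap between the controls. It reached 68.7 CPM in LM2 lung clone 1 and 20.9 in bleomycin lung clone 1, and was at 8.12 in LM2 lung clone 3. ITGB4-high cells, which were kept in dishes, had 32.7 CPM, above the bleomycin library. The separation of lung from control libraries in LIF rested on 8.12 against 8.04 CPM, a margin far inside the spread of the controls. The fitted difference from control was 2.48 (SE 0.96, adjusted p = 0.226) for all lung libraries and 2.49 (SE 1.203, adjusted p = 0.278) for ITGB4-high cells. Lung libraries and ITGB4-high cells differed by -0.01 (95% interval -2.64 to 2.62), a value whose sign turned with RLE size factors.

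IL11 (ENSG00000095752, chromosome 19, 55364389 to 55370463, minus strand), the ligand of a stromal and fibrotic branch of the family, was close to silent. Its raw counts were 1 in each control, 3 in LM2 lung clone 1, 0 in LM2 lung clone 3, 1 in bleomycin lung clone 1 and 4 in ITGB4-high cells. All libraries but the last stood at or under the floor of 3 counts, so IL11 did not enter the tests and no fold is given. Without the low-count filter its adjusted p ran from 0.616 to 1.

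**Figure D2:**
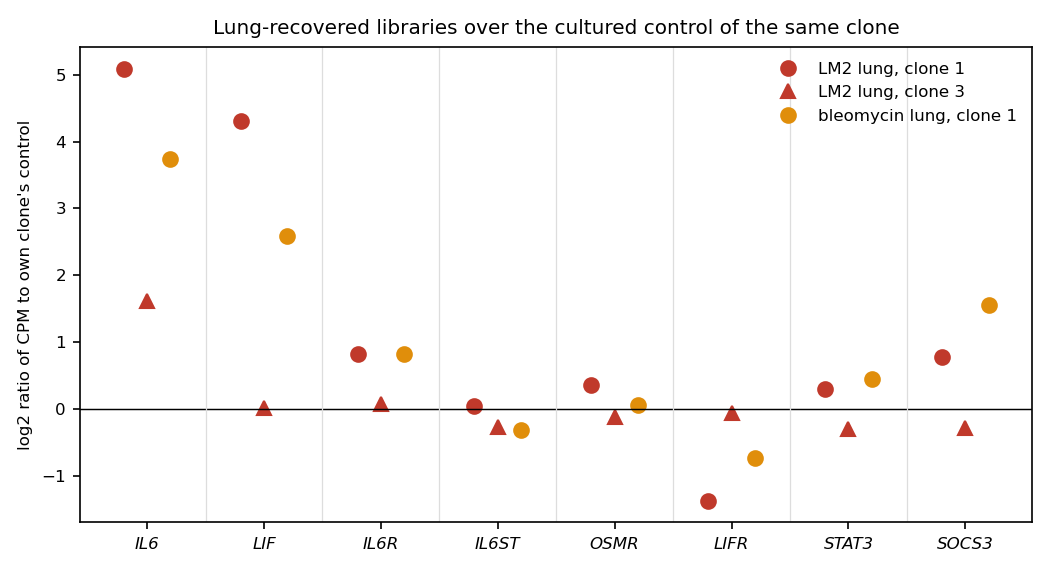
Log2 ratio of CPM (y axis) of each lung-recovered library to the cultured control of the same clone, for the 8 tested genes (x axis); red circles are LM2 lung clone 1, red triangles LM2 lung clone 3, orange circles bleomycin lung clone 1. For IL6 all 3 ratios lie above 0 (5.09, 1.61 and 3.73), while for LIF the clone 3 ratio is at 0.01.

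The 3 lung ratios of IL6 and LIF kept 1 order, with LM2 lung clone 1 first, bleomycin lung clone 1 second and LM2 lung clone 3 last. Both ratios of clone 1 share its single control. Whether the lung difference itself differed between clones was tested after the levels were seen, in an edgeR fit with 1 residual degree of freedom. The difference of clone 1 from clone 3 was 2.95 for IL6 and 3.68 for LIF (adjusted p = 1 for each). In that fit 0 of 15673 genes passed, with IL6 and LIF among 312 at an unadjusted p under 0.05.

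Transcripts of other cells were looked at beside IL6, which macrophages and fibroblasts also make. The lungs were of mice and the counts are of human genes, so mouse cells add counts only where their reads align to those genes. Low levels of these markers therefore cannot show that such mouse cells were absent. Of 12 macrophage and myeloid markers, 5 to 8 per library were at or under 3 counts, and AIF1 had no count in any. The summed level of the list was 5.75 and 5.06 CPM in control clones 1 and 3, 6.35 and 3.32 in LM2 lung clones 1 and 3, 9.55 in bleomycin lung clone 1 and 2.19 in ITGB4-high cells. PTPRC, the pan-leukocyte CD45 gene, was at 2.33 CPM in LM2 lung clone 1 and 2.69 in bleomycin lung clone 1, against 0.256 in LM2 lung clone 3 and 0.184 to 0.208 in controls. PTPRC was thus higher in the clone 1 than in the clone 3 lung libraries, as IL6 was. ADGRE1, the F4/80 gene, was at 1.94 and 1.21 CPM in LM2 lung clones 1 and 3 and 0.833 in bleomycin lung clone 1, against 0.0693 and 0.184 in controls. CD163, a scavenger receptor of macrophages, went the other way, at 3.12 and 3.59 CPM in controls and 0.310 to 1.79 in lung libraries. Of the 12 markers, 3 lay above both controls in all 3 lung libraries and 1 below, beside 20.4% and 25.4% of all genes tested. These shares are not alike, because 6 of the 12 had enough counts to test. ITGAM, among those above, was at 0 CPM in both controls and 0.0639 in LM2 lung clone 3. TYROBP, which macrophages express, was at or near 0 in all 6 libraries. The part of such cells in the IL6 level was not tested. The 9 fibroblast markers summed to 512 to 848 CPM in lung libraries and 153 to 189 in controls, but the order of that sum depended on single genes, as was seen when each was left out after the levels were known. COL1A1 made up 712 of the 848 CPM in LM2 lung clone 3, and PDGFRA 449 of the 580 CPM in LM2 lung clone 1. Without COL1A1 the sum was 490 CPM in LM2 lung clone 1, 317 in bleomycin lung clone 1 and 136 in LM2 lung clone 3, the order of IL6, against 117 and 159 in controls. Without PDGFRA it was 131, 291 and 821 CPM in the same lung libraries, the reverse of that order. Of the 7 fibroblast markers tested, 0 passed in any comparison, and their median was -0.41 in LM2 lung and 1.22 in bleomycin lung against control. PDGFRB was at 28.1 and 26.9 CPM in controls and 6.74 to 24.8 in lung libraries. The part of fibroblasts in the IL6 level was not tested. All 7 lymphocyte markers stayed at or under 3 counts in every library.

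LM2 cells are human, so their transcripts would align as SUM159 transcripts do. A list of 18 genes known for the lung-metastatic state of LM2 summed to 3137 CPM in LM2 lung clone 1 and 1291 in LM2 lung clone 3. The same sum was 1471 in bleomycin lung clone 1, 1121 and 1380 in controls and 1650 in ITGB4-high cells. EREG, which encodes the growth factor epiregulin, made up 1962 CPM of the sum in LM2 lung clone 1. Without EREG the sums were 1176 and 1077 CPM in LM2 lung clones 1 and 3 and 887 in bleomycin lung clone 1. They were 1030 and 1290 in controls and 763 in ITGB4-high cells, so LM2 lung clone 1 no longer stood apart in the sum. Among the 17 list genes tested, LM2 lung clone 1 was the highest lung library for 11. The other lung libraries were highest for 3 each. Over all 6 libraries, LM2 lung clone 1 was highest for 7 of the 17. How often it was highest over all genes was not counted. Gene by gene, 9 of the 18 lay above both controls in all 3 lung libraries and 3 below, beside 20.4% and 25.4% of all genes tested. IL6 was at 68.5 and 8.57 CPM in LM2 lung clones 1 and 3. It was at 26.7 CPM in the bleomycin library, for which the labels name no LM2 cells. The part of LM2 cells in the level of IL6 and LIF was not tested. Of 17 list genes tested, 1 passed in all lung libraries against control, where 0.498% of all genes passed. It was ID1, a helix-loop-helix inhibitor of differentiation (2.74, adjusted p = 0.0274, edgeR). The median difference of the list was 2.74 against 0.00 over all genes. The ID1 call ended without control clone 1 (adjusted p = 0.280), control clone 3 (0.337) or the bleomycin library (0.111), and with the clone block (0.0513).

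IL6R (ENSG00000160712, chromosome 1, 154405193 to 154469450, plus strand) encodes the ligand-binding chain for IL-6. Controls were at 16.8 and 19.99 CPM (clones 1 and 3). The LM2 lung libraries were at 29.7 and 21.0 CPM (clones 1 and 3) and bleomycin lung clone 1 at 29.7 CPM. ITGB4-high cells stood at 70.9 CPM, 3.86-fold above the control mean and above every other library. The labels give ITGB4-high cells no clone, and the clone block used below sets them midway between clones 1 and 3. The lung libraries did not overlap the controls, but LM2 lung clone 3 was 1.05-fold its own control. The fitted difference of ITGB4-high cells from control was 1.95 (SE 0.26, 95% interval 1.25 to 2.64, adjusted p = 0.0621). With clone as a replicate block the value was 1.94 and the adjusted p 0.0469, past the threshold. Lung libraries stood below ITGB4-high cells by a fitted -1.40 (SE 0.24, adjusted p = 0.0881) and above control by 0.54 (SE 0.21, adjusted p = 0.222).

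IL6ST (ENSG00000134352, chromosome 5, 55935095 to 55994993, minus strand), the gp130 gene, was at 1659 and 1662 CPM in the controls (clones 1 and 3), the closest pair of values in the set. The LM2 lung libraries were at 1704 and 1370 CPM and bleomycin lung clone 1 at 1330 CPM. ITGB4-high cells had 881 CPM, below all the others. Lung and control libraries overlapped, and their fitted difference was -0.18 (95% interval -0.57 to 0.22). ITGB4-high cells differed from control by -0.91 (SE 0.22, adjusted p = 0.104).

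OSMR (ENSG00000145623, chromosome 5, 38845858 to 38945596, plus strand) encodes the oncostatin M chain. It was at 407 and 445 CPM in controls, 519 and 408 in the LM2 lung libraries (clones 1 and 3) and 423 in bleomycin lung clone 1. ITGB4-high cells had 247 CPM, again below every other library. The fitted difference of ITGB4-high cells from control was -0.79 (SE 0.22, adjusted p = 0.130), and that of lung from control was 0.08 (95% interval -0.30 to 0.46). OSMR overlaps RICTOR on the opposite strand, with up to 2651 counts, and no source used here gives the strand setting of the count.

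LIFR (ENSG00000113594, chromosome 5, 38474963 to 38608354, minus strand) encodes the LIF chain. Controls were at 292 and 318 CPM. LM2 lung clone 3 was at 305 CPM, between them, whereas LM2 lung clone 1 was at 113 CPM and bleomycin lung clone 1 at 176 CPM. ITGB4-high cells had the lowest level, 71.5 CPM, or 0.234 of the control mean. Against their own control, the ratios on the log2 scale were -1.38 for LM2 lung clone 1, -0.06 for LM2 lung clone 3 and -0.73 for bleomycin lung clone 1. LIFR was therefore lowest in the 3 libraries where LIF was highest, a description over 6 libraries. The fitted difference from control was -2.09 for ITGB4-high cells (SE 0.65, adjusted p = 0.150) and -0.62 for lung libraries (SE 0.39, adjusted p = 0.402). LIFR shares its locus with the antisense gene LIFR-AS1, which had at most 104 counts.

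**Figure D3:**
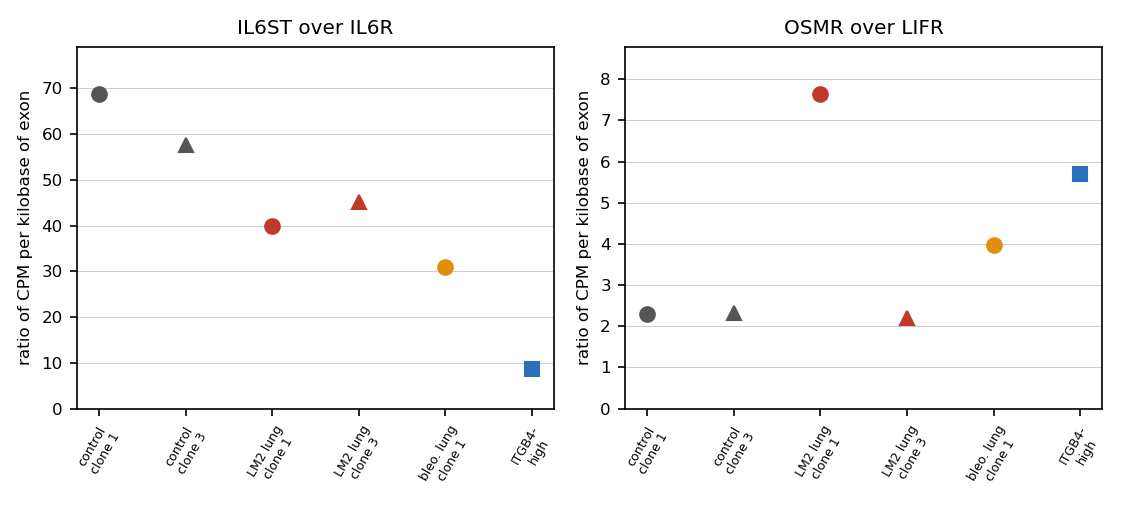
Ratio of CPM per kilobase of exon (y axis) of IL6ST to IL6R (left) and of OSMR to LIFR (right) in each library (x axis); symbols as for the levels, 1 library per point. The IL6ST to IL6R ratio is 68.7 and 57.7 in controls and 8.63 in ITGB4-high cells, and the OSMR to LIFR ratio is highest in LM2 lung clone 1 at 7.64.

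The balance of receptor chains was read within each library, where library size cancels. Per kilobase, IL6ST exceeded IL6R by 68.7-fold and 57.7-fold in control clones 1 and 3. The ratio was 39.9 and 45.2 in LM2 lung clones 1 and 3, 31.1 in bleomycin lung clone 1 and 8.63 in ITGB4-high cells. All 3 lung libraries lay below both controls, and ITGB4-high cells lay below all. OSMR exceeded LIFR by 2.31-fold in each control and 2.21-fold in LM2 lung clone 3, but by 7.64-fold in LM2 lung clone 1, 3.97-fold in bleomycin lung clone 1 and 5.71-fold in ITGB4-high cells. These ratios of transcripts carry no test.

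STAT3 (ENSG00000168610, chromosome 17, 42313324 to 42388568, minus strand) encodes the transcription factor at the end of the pathway. It was at 233 and 316 CPM in controls, 286 and 256 in the LM2 lung libraries (clones 1 and 3), 316 in bleomycin lung clone 1 and 188 in ITGB4-high cells. The lung libraries lay inside or level with the range of the controls, and ITGB4-high cells lay below it. The fitted difference of lung from control was 0.06 (95% interval -0.38 to 0.50, adjusted p = 0.868), a value that was negative without control clone 1 or without the bleomycin library. RNA levels do not read the phosphorylation that activates the protein.

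SOCS3 (ENSG00000184557, chromosome 17, 78356778 to 78360077, minus strand), the feedback inhibitor, was at 4.78 and 9.56 CPM in controls. It was at 8.21 and 7.80 CPM in the LM2 lung libraries (clones 1 and 3), 14.1 in bleomycin lung clone 1 and 6.13 in ITGB4-high cells. The bleomycin library was the highest and was 2.95-fold its own control, but the controls themselves differed by 2.0-fold. Its fitted difference was 0.97 for bleomycin against control (SE 0.45, adjusted p = 0.406) and 0.48 for all lung libraries (SE 0.41, adjusted p = 0.531). In LM2 lung clone 1, where IL6 was 34.1-fold its own control, SOCS3 was 1.72-fold its own control, and its level lay between those of the 2 controls.

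**Figure D4:**
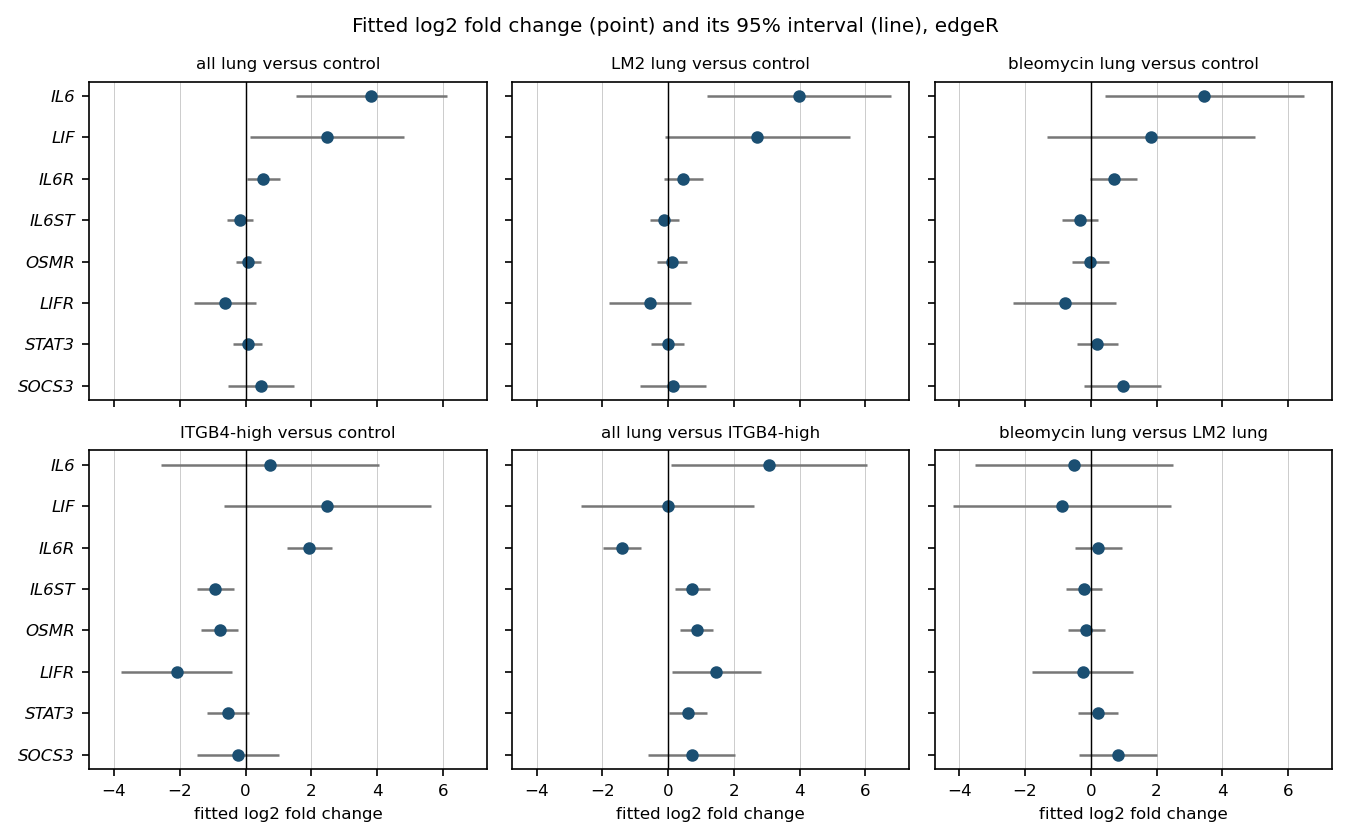
Fitted log2 fold change (x axis, point) with its 95% interval (line) for the 8 tested genes (y axis) in the 6 comparisons, edgeR on all 6 libraries. Intervals are widest for IL6 and LIF; for IL6 in all lung libraries against control the interval runs from 1.52 to 6.13, and for IL6R in ITGB4-high cells from 1.25 to 2.64.

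Counted over the comparisons, 0 of the 8 tested genes passed in LM2 lung against control, where 0.0319% of all genes passed, and 0 of 8 in bleomycin lung against control, where 0.0255% did. In ITGB4-high cells against control it was 0 of 8 against 0.0893%. Bleomycin against LM2 lung gave 0 of 8 against 0%. All lung libraries against control gave 0 of 8 against 0.498%, and all lung libraries against ITGB4-high cells 0 of 8 against 0.108%. With so few genes passing anywhere, a count of 0 is near the background. At an unadjusted p under 0.05, 1 of 8 stood out in LM2 lung (IL6) against 15.6% of all genes, 1 in bleomycin lung (IL6) against 14.5%, and 0 in bleomycin against LM2 lung, where 4.61% of all genes did. In ITGB4-high cells against control it was 4 of 8 (IL6R higher; IL6ST, OSMR and LIFR lower) against 24.5%. In all lung libraries against control it was 3 (IL6, LIF and IL6R, all higher) against 20.5%, and against ITGB4-high cells 6 (IL6, IL6ST, OSMR, LIFR and STAT3 higher, IL6R lower) against 18.3%. All lung libraries lay above both controls for 3 of 8 genes (IL6, LIF, IL6R), as for 20.4% of all genes, and below both for 0 of 8, as for 25.4% of all genes.

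DESeq2, run as another test on the same counts, passed more genes throughout. It called IL6 higher in LM2 lung (4.03, adjusted p = 5.02e-05), where 4.48% of all genes passed, and in bleomycin lung (3.49, adjusted p = 0.0119), where 4.19% passed. In all lung libraries against control IL6 was the 1 gene of 8 that passed (3.87, adjusted p = 1.63e-05), with 8.84% of all genes. In ITGB4-high cells against control it called IL6R higher (1.96, adjusted p = 2.66e-05) and LIFR (-2.08) and IL6ST (-0.90) lower, with 10.7% of all genes. Against ITGB4-high cells, all lung libraries had IL6, IL6ST, OSMR and LIFR called higher and IL6R lower, with 8.02% of all genes, and bleomycin against LM2 lung had 0 of 8 with 0.404%.

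Most of the edgeR calls turned on the LM2 pair. Leaving out LM2 lung clone 1 left IL6 in LM2 lung clone 3 at 1.80 above control (adjusted p = 0.000797, edgeR), 1 of 8 genes called with 11.6% of all genes. Leaving out LM2 lung clone 3 put IL6 at 4.81 (adjusted p = 4.03e-06) and called 5 of 8 (IL6, LIF, IL6R and OSMR higher, LIFR lower), with 40.8% of all genes. In bleomycin lung against control, IL6, IL6R and LIFR passed without LM2 clone 1 (28.1% of all genes), and LIF too without LM2 clone 3 (27.2%). In these fits the lone LM2 library is assumed to vary like the control pair, which was the closer pair. All lung libraries against control had IL6 called without LM2 clone 3 alone (4.30, adjusted p = 0.0216, 6.55% of all genes). ITGB4-high cells against control had 5 of 8 called without LM2 clone 1 (42% of all genes) and 6 of 8 without LM2 clone 3 (41.6%). IL6R, LIF, LIFR, OSMR and IL6ST were in both sets, with STAT3 in the second. Bleomycin against LM2 lung had IL6 and LIFR called in both, with 7.42% and 19.2% of all genes, but the sign of each turned: IL6 was at 1.64 without clone 1 and -1.36 without clone 3, and LIFR at -0.79 and 0.64. Against ITGB4-high cells, lung libraries without LM2 clone 1 had IL6R, OSMR and IL6ST called, with 9.1% of all genes. The same 3 genes passed without the low-count filter in that comparison (4.23% of genes) and in ITGB4-high cells against control (8.14%), and the clone block called IL6R alone in the latter (2.32%).

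The other ligands of the family were mostly absent. Of 7 listed, OSM, IL27 and IL31 had 0 counts in every library, which allows up to 0.135 to 0.22 CPM, and CTF1 stayed under that. The other 3 were tested and 0 passed in any of the 6 comparisons. EBI3, a subunit of IL-27 and IL-35, was at 3.56 CPM in LM2 lung clone 1 and 3.33 in bleomycin lung clone 1, against 0.575 in LM2 lung clone 3, 0.416 and 0.506 in controls and 0.584 in ITGB4-high cells (2.39 for lung against control, adjusted p = 0.201). EBI3 was thus highest in the same 2 libraries as IL6. Like EBI3, the ligands CNTF and CLCF1 were higher in each lung library than in both controls, as were 20.4% of all genes tested. Their fitted differences of lung from control were 1.44 and 0.98 (adjusted p = 0.210 and 0.138, edgeR). CNTF was at 6.04 and 2.68 CPM in LM2 lung clones 1 and 3, 2.24 in bleomycin lung clone 1 and 2.92 in ITGB4-high cells. CLCF1 was at 6.64 CPM in ITGB4-high cells, which were kept in dishes, above the 4.16 to 4.96 of the lung libraries. These 3 are all the tested genes of a list chosen by family.

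Of 5 other receptor genes, CNTFR and IL12RB2 were at or near 0 counts and 3 were tested, with 0 called in any comparison. IL31RA, which pairs with OSMR for IL-31, was at 27.6 and 25.4 CPM in controls, 7.83 and 12.6 in LM2 lung clones 1 and 3, 8.53 in bleomycin lung clone 1 and 7.08 in ITGB4-high cells. Controls therefore lay above all others (-1.45 for lung against control, SE 0.24, adjusted p = 0.0693). IL11RA, the IL-11 chain, was at 4.09 and 4.50 CPM in controls and 0.620 to 2.56 elsewhere (-1.55, adjusted p = 0.202). IL27RA was at 32.9 CPM in bleomycin lung clone 1 and at 9.71 to 20.8 in the rest (0.25, adjusted p = 0.695).

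Among 10 other kinase and STAT genes, 9 were tested and 1 passed. STAT5A, a STAT best known for prolactin and growth hormone signalling in breast, was at 0.416 and 0.322 CPM in controls and 0.511 in ITGB4-high cells. It was at 11.3 and 10.7 CPM in LM2 lung clones 1 and 3 and 8.97 in bleomycin lung clone 1. It rose in all lung libraries against control (4.80, SE 0.32, adjusted p = 0.0134, with 0.498% of all genes passing) and against ITGB4-high cells (4.31, adjusted p = 0.0484, with 0.108%). The call against control ended without control clone 1 (4.99, adjusted p = 0.242), control clone 3 (4.60, adjusted p = 0.282) or the bleomycin library (4.89, adjusted p = 0.0571), and held with the clone block (adjusted p = 0.0350). The call against ITGB4-high cells ended with the clone block (adjusted p = 0.106) and without control clone 1 (0.198), control clone 3 (0.192), LM2 lung clone 3 (0.0567) or the bleomycin library (0.101). Unlike IL6 and LIF, STAT5A was nearly level between the 2 clones. JAK2 was at 27.8 and 31.7 CPM in controls, 12.2 to 19.6 in lung libraries and 4.45 in ITGB4-high cells (-0.85 for lung against control, adjusted p = 0.144). STAT2, an interferon-pathway STAT, was at 144 and 141 CPM in controls, 49.9 to 96.4 in lung libraries and 28.5 in ITGB4-high cells (-1.03, adjusted p = 0.139). JAK1, the main gp130 kinase, was at 240 CPM in ITGB4-high cells, 233 to 249 in controls and 175 to 206 in lung libraries (-0.30, adjusted p = 0.262).

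**Figure D5:**
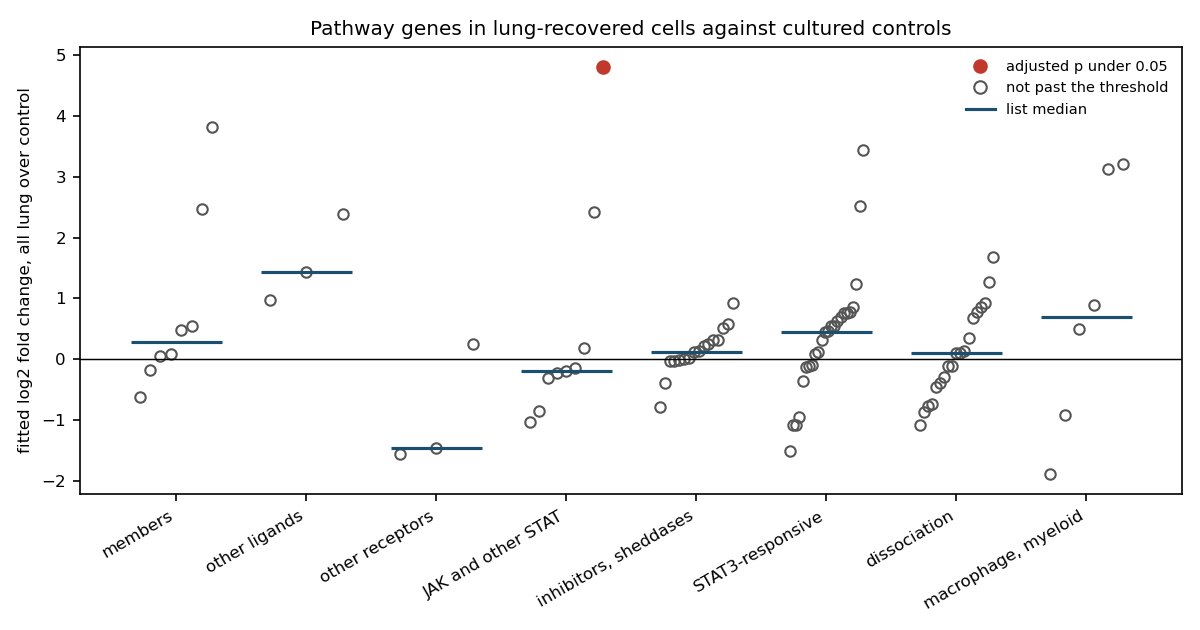
Fitted log2 fold change of all lung libraries over control (y axis) for the tested genes of each list (x axis); filled red points have an adjusted p under 0.05, open points do not, and bars are list medians. Of the lists drawn, the kinase and STAT list alone holds a called gene, STAT5A at 4.80; the family genes have their median at 0.28.

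Inhibitors and receptor sheddases (SOCS, PIAS and phosphatase genes, ADAM10 and ADAM17) numbered 17, of which 16 were tested and 0 passed in any comparison. Their median in all lung libraries against control was 0.13, beside 0.00 over all genes. PTPN1, a phosphatase of JAK2, was at 84.8 and 90.7 CPM in controls, 235 and 127 in LM2 lung clones 1 and 3, 140 in bleomycin lung clone 1 and 202 in ITGB4-high cells (0.93, adjusted p = 0.170). ADAM17, which sheds IL-6 receptor from cells, was at 83.2 to 94.4 CPM in 5 libraries and 139 in LM2 lung clone 1.

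Of 30 genes known to respond to STAT3, 24 were tested and 0 passed in any comparison, with a median of 0.46 in all lung libraries against control. The acute-phase gene SAA1 was at 439 CPM in bleomycin lung clone 1 against 66.0 and 158 in controls, 129 and 41.4 in LM2 lung clones 1 and 3 and 79.5 in ITGB4-high cells (0.85, adjusted p = 0.632). SAA2 had the same highest library, at 170 CPM, against 9.65 to 43.8 elsewhere. JUNB was at 145 CPM there and at 55.8 and 72.5 in controls (0.77, adjusted p = 0.189). Others of the list had another order: IRF1, an interferon-response factor, was at 62.5 CPM and CEBPB, a C/EBP factor, at 125 in LM2 lung clone 1, the highest of the 6 libraries for each, as for IL6. Of the 24 tested, 8 were highest in bleomycin lung clone 1, 2 in each LM2 lung library, 7 in ITGB4-high cells and 5 in a control. The same shares over all genes were not counted, so these numbers describe the list alone. FOS, at 21.1 and 62.2 CPM in controls, was at 7.67 to 30.9 in lung libraries (-1.07, adjusted p = 0.385). It also belongs to the 19 genes of tissue dissociation, of which 0 passed, with a median of 0.10. Their summed level was 2872 to 4583 CPM in lung libraries against 3326 and 4356 in controls. Without HSPA8 the sum was 2026 to 2617 CPM in lung libraries against 1823 and 2538 in controls. Of the 19, 7 lay above both controls in all 3 lung libraries and 2 below, beside 20.4% and 25.4% of all genes tested.

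For the genes whose highest and lowest libraries differed by at least 2-fold, the 3 protein-coding genes of most similar profile were sought among 10226 candidates. Likeness was the root mean square difference of log2 CPM over the 6 libraries, each gene centred on its mean. For IL6 they were TNFAIP6, a hyaluronan-binding protein (0.56), DNER (0.61) and SGPP2 (0.61), all looser matches than for the other genes. TNFAIP6 was at 7.90 and 8.27 CPM in controls, 77.0 and 19.05 in LM2 lung clones 1 and 3 and 47.1 in bleomycin lung clone 1. For LIF they were UBASH3B (0.37), the ribonuclease gene ZC3H12A (0.41) and SUSD6 (0.42). ZC3H12A was at 118 CPM in LM2 lung clone 1, 66.5 in bleomycin lung clone 1 and 49.3 in ITGB4-high cells, against 8.80 and 11.9 in controls. For IL6R they were KIF9 (0.12), the integrin gene ITGA3 (0.14) and HMGA1 (0.16), and ITGA3 was at 736 CPM in ITGB4-high cells against 206 and 227 in controls. For LIFR they were CYB5A (0.15), GAB2 (0.15) and MEGF6 (0.17). OSMR was nearest NFRKB (0.04), FBXL5 (0.05) and TOM1L2 (0.05), and SOCS3 nearest FUCA1 (0.12), CARD19 (0.20) and TTYH3 (0.23). GAB2, an adaptor protein, was at 2.77 CPM in ITGB4-high cells, 3.95 in LM2 lung clone 1 and 5.13 in bleomycin lung clone 1, against 9.46 to 11.0 in the rest.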

How the data were processed

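Poly(A) RNA-seq of 6 libraries was used. STAR 2.7.1a and hg38 are named in the submitters' processing notes. Whole-number counts per gene were deposited by the authors, and no source used here names the counter. Of 58336 identifiers, 58216 matched GENCODE 29 and 120 did not. CPM used TMM factors. The main test was edgeR 4.0.16 (R 4.3.3), quasi-likelihood, with filterByExpr at a minimum count of 10, leaving 15673 genes for Benjamini-Hochberg adjustment. The fit with 4 groups left 2 residual degrees of freedom, and that with 3 classes (lung, control, ITGB4-high) left 3. Scripts were tested on simulated data.

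The genes and lists were chosen with earlier results of these data known. One listed gene is not reported here. All 9 genes are named; list genes were named by passing or, at a mean log2 CPM of 2 or more, by size. EBI3, CNTF, CLCF1, IL11RA, ADAM17, JAK1, IRF1, CEBPB and single marker genes were named after their values were seen. Clones pair libraries through titles, and the clone deviations of control and LM2 lung correlated at 0.00847 over 10746 genes. The p-values measure spread among libraries, which the labels do not call separate cultures or animals, and clone 1 gives 2 of the 3 lung libraries. Floors cover counting error only. Alternatives were RLE factors, no filter, DESeq2 1.42.0, a clone block and leaving out each library.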

Additional observations from a re-analysis of the deposited data

Results flagged for a closer look

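For 4 genes the LM2 lung library of clone 1 lay above its own control while that of clone 3 lay below its own. The log2 ratio of clone 1 minus that of clone 3 was 0.318 for IL6ST, 0.476 for OSMR, 0.606 for STAT3 and 1.08 for SOCS3. With 1 library per clone and condition, this difference between clones was not tested for these pairs alone; in the fit that joined both clone 1 lung libraries, all 4 had an adjusted p of 1. SOCS3 was at 8.21 and 7.80 CPM in LM2 lung clones 1 and 3, and at 4.78 and 9.56 CPM in control clones 1 and 3.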

How the results depend on the processing

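Of 448 values of single genes under the alternatives, 374 kept their direction and side of the threshold. Another 48 passed it in the same direction, and 26 turned sign, whether or not they passed. Without leaving out a library, the sign turned for STAT3 in LM2 lung against control (0.0018 with RLE factors, 0.0017 with DESeq2), OSMR in bleomycin lung against control (0.0064 with both), LIF in lung against ITGB4-high (0.0058 with RLE, 0.0100 with DESeq2) and LIFR in bleomycin against LM2 lung (0.28 with the replicate block by clone).

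Genes called moved most. In LM2 lung against control, 5 became 14 with RLE, 1748 with no filter, 647 with DESeq2 and 36 with the block. Bleomycin lung against control went from 4 to 1430 with no filter, 580 with DESeq2 and 8 with the block. ITGB4-high against control went from 14 to 74 with RLE, 2707 with no filter, 1517 with DESeq2 and 363 with the block. Bleomycin against LM2 lung went from 0 to 236 with no filter and 56 with DESeq2. Lung against control went from 78 to 2152, 1278 and, with the block, 39. Lung against ITGB4-high went from 17 to 1406, 1086 and, with the block, 0. Of the family genes, DESeq2 called 1 in LM2 lung, 1 in bleomycin lung, 3 in ITGB4-high, 1 in lung against control and 5 in lung against ITGB4-high; no filter called 3 in each comparison with ITGB4-high. The replicate block called 1, IL6R in ITGB4-high against control, and changed no other call of a family gene. The cause was not tested.

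Leaving out each library gave 0 to 6303 genes in LM2 lung against control, 0 to 4424 in bleomycin lung, 0 to 6611 in ITGB4-high, 0 to 2969 in bleomycin against LM2 lung, 0 to 1012 in lung against control and 0 to 1432 in lung against ITGB4-high; family genes called ran from 0 to 5, 4, 6, 2, 1 and 3 in the same order, with calls only without LM2 lung clone 1 or clone 3. Signs turned within these ranges over the left-out libraries. In LM2 lung against control they ran from -0.28 to 0.051 for IL6ST, -0.064 to 0.30 for OSMR, -1.43 to 4.7e-05 for LIFR, -0.20 to 0.21 for STAT3 and -0.24 to 0.74 for SOCS3. OSMR ran from -0.056 to 0.052 in bleomycin lung against control and from -0.036 to 0.16 in lung against control, where STAT3 ran from -0.12 to 0.29. In ITGB4-high against control SOCS3 ran from -0.64 to 0.35, and in lung against ITGB4-high LIF ran from -1.17 to 0.48. Bleomycin against LM2 lung ran from -1.36 to 1.64 for IL6, -1.72 to 1.37 for LIF, -0.0030 to 0.50 for IL6R, -0.30 to 0.055 for OSMR and -0.79 to 0.64 for LIFR. Bleomycin and ITGB4-high have 1 library each, so their error is borrowed. Depth limits IL11 alone among the 9 genes.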
